A study of Mus musculus with 8 samples.

Results

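Trac, Trbc1 and Trbc2, the genes for the constant regions of the α and β chains of the T cell receptor, were followed through double-negative (DN) mouse thymocytes, which have not yet put CD4 or CD8 on their surface. They were chosen by symbol, and are 3 of the 15653 genes in the deposited matrix. Levels were set against the deposited cell clusters and against the receptor chains assembled from the same cells. DN3 cells (CD44-negative, CD25-positive) and DN4 cells (CD44-negative, CD25-negative) were sorted from C57BL/6J mice (wild type, WT) and from knock-in mice labelled GSK3B Ser389Ala KI (KI below), in which the kinase GSK3β carries an alanine in place of a serine. The title of the series places phosphorylation of that serine, and the diversity of receptor chains, at the centre of the study. No other treatment and no age is given, and the number of mice behind a library is not given in the sources used here. Each of the 4 groups had 1 library of 5′ single-cell expression and 1 library of receptor sequence, so genotypes and stages could be described but not tested. Where 4 values follow each other below, the DN3 pair (WT, then KI) precedes the DN4 pair (WT, then KI).

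The β chain is assembled first. Recombination joins V, D and J segments, and splicing then attaches a constant exon. The β locus holds a pair of D-J-C cassettes in tandem, so that a chain with a J segment of the first cassette (TRBJ1) is spliced to Trbc1 and a chain with a J segment of the second (TRBJ2) to Trbc2, and a join to TRBJ2 removes the first cassette from that chromosome while a join to TRBJ1 leaves the second in place. A working β chain pairs with the pre-T α chain, encoded by Ptcra, and drives the cells into division (β-selection). The α locus, with Trac at its end, recombines later, at the double-positive stage. Unrearranged or partly rearranged receptor loci are also known to give transcripts that reach the constant exons without encoding a chain.

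The pair of β constant genes is so alike that counts of either need care, and the sequences are shown for that reason. In GENCODE vM21 (GRCm38) Trbc1 (ENSMUSG00000076490.6) lies at chr6:41538218-41539881 and Trbc2 (ENSMUSG00000076498.2) at chr6:41546730-41548352, both on the plus strand and each with 4 exons and 518 coding bases. The Trbj1 segments lie before Trbc1, at chr6:41533864-41535687, and the Trbj2 segments between both genes, at chr6:41542754-41543856. The coding parts of the pair are 95.6% identical, with 23 different bases. Exon 1, the exon next to the variable part and so the nearest to the 5′ end that these libraries read, has 375 bases and 1 difference, C260A (the Trbc1 base, the position counted from the first base of exon 1, then the Trbc2 base). Exon 3 has 15 differences in 107 bases. In the lines that follow, capitals mark the bases that differ between the genes. The stretch of exon 1 around its difference (chr6:41538432-41538522 and chr6:41546944-41547034) and all of exon 3 (chr6:41539229-41539335 and chr6:41547772-41547878) are shown, 5′ to 3′.
Trbc1 exon 1: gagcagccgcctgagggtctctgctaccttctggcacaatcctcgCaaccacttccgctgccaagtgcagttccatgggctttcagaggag
Trbc2 exon 1: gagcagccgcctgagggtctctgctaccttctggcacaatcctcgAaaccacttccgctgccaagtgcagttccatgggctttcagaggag
Trbc1 exon 3: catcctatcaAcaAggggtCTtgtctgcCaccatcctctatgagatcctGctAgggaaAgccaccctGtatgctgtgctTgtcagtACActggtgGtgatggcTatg
Trbc2 exon 3: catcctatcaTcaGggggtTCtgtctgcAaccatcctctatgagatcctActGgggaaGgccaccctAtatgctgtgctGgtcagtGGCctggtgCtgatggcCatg

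Of the 286 windows of 90 bases in exon 1 (a length chosen for this count), 196, or 68.5%, are the same in both genes. A read inside such a window cannot be given to either gene from exon 1 alone, and how the authors' counting treated it is not given in the sources used here. Levels of Trbc1 and Trbc2 are therefore uncertain as absolute values, and so is the split of UMIs between both genes. Trac (ENSMUSG00000076928.5, chr14:54220521-54224206, plus strand, 4 exons, 410 coding bases) has no such copy, and the first 90 bases of its exon 1 (chr14:54220521-54220610) are given to show the unlike sequence of the α constant region.
Trac exon 1: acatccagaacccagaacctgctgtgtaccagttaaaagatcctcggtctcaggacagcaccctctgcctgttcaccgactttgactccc

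The libraries held between 1477 and 3298 cells, 10237 in all, with median depths between 5495 and 9345 unique molecular identifiers (UMIs, counted molecules) per cell. Between 14 and 36 cell barcodes of each library also occurred in another library. Cells with a productive TRB contig (an assembled, in-frame β chain) made up 20.7% and 22.1% of cells in the DN3 pair and 60.7% and 62.4% in the DN4 pair. Gsk3b, whose protein the knock-in alters, stood at 107, 90.6, 93.8 and 74.2 UMIs per 1000000 UMIs (CPM), which says nothing on the kinase's activity. Of the deposited clusters, 0 and 1 were taken as pre-selection DN3 cells (7 of 7 marker genes detected, 2242 CPM summed in WT and 2214 in KI). Detected here means at least 1 UMI over all cells of the group, a low bar that does not by itself name a cluster. Clusters 0 and 1 held mostly KI cells (2415 KI, 109 WT) and mostly WT cells (54 KI, 2146 WT) of DN3 respectively, and were pooled here. Clusters 3 and 4 carried the cycling markers (1252 to 1646 CPM summed over 4 genes) and a productive TRB contig in 83.7% to 95.1% of cells. Cluster 6 had such a contig in 71.2% (WT) and 68.3% (KI) of its DN3 cells. Cluster 2, of DN4 cells, had all 8 γδ T markers detected in that sense (2233 and 1892 CPM summed). A productive TRB contig was found in 18.7% (WT) and 18.6% (KI) of its cells. It also carried the list of NK, innate lymphoid and NKT genes highest (2692 and 3335 CPM). Cluster 5, of DN4 cells, had a productive TRA contig in 83.0% (WT) and 80.8% (KI) of cells.

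Trac was close to absent before β-selection and highest in the DN4 cells that carry an α chain. Over whole DN3 libraries it stood at 3.66 CPM (WT) and 5.01 (KI), and over whole DN4 libraries at 72.8 and 52.3. In clusters 0 and 1 of DN3 it was at 0.780 CPM (WT, 10 UMIs in 2255 cells) and 0.798 CPM (KI, 10 UMIs in 2469 cells). Those are the lowest Trac values of the cluster groups. Cluster 6 stood at 10.2 CPM in WT and 6.48 in KI, from 28 and 18 UMIs. Clusters 3 and 4 of DN3 stood at 6.27 CPM in WT (95% Poisson interval 4.50 to 8.50) and 9.29 in KI (7.48 to 11.4). The intervals of cluster 6 and of clusters 3 and 4 overlapped within each genotype, so their order is not resolved. In DN4, clusters 3 and 4 stood at 23.6 CPM in WT and 26.1 in KI, again with overlapping intervals (20.7 to 26.7 and 24.0 to 28.3). Cluster 2 came next with 101 CPM in WT and 107 in KI, and cluster 7, large enough only in KI, had 82.9 CPM, with an interval that overlapped that of cluster 2 (65.8 to 103 and 98.2 to 116). Cluster 5 was the highest group in both genotypes, with 325 CPM in WT and 258 in KI.

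**Figure D1:**
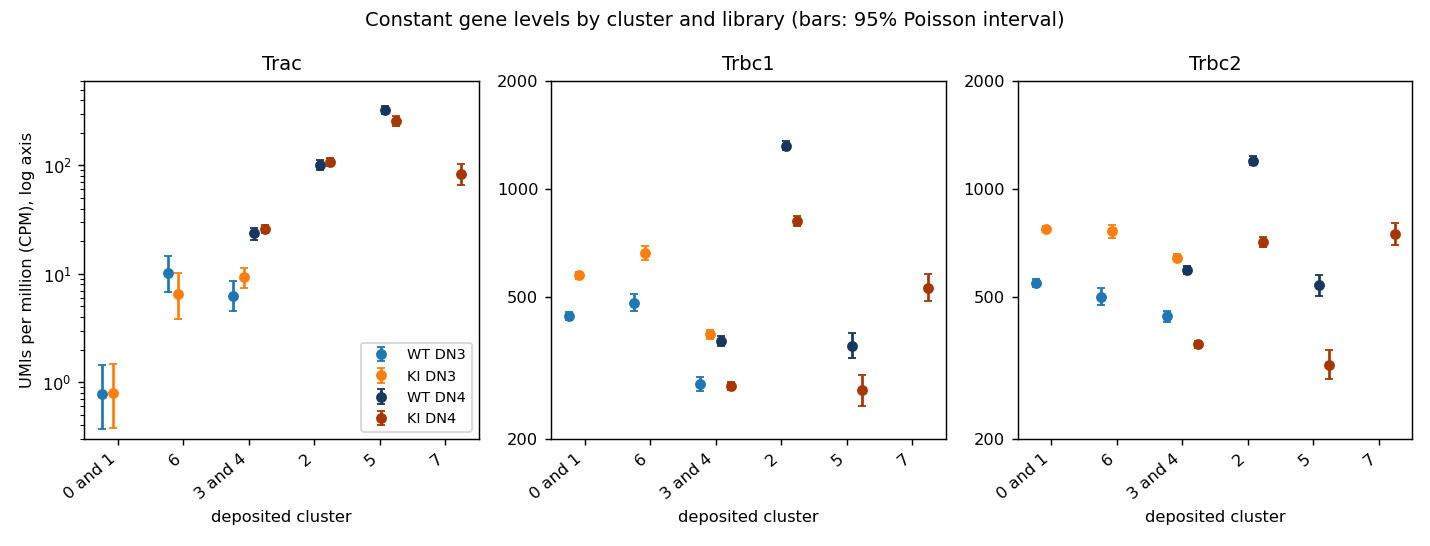
CPM (log axes) of Trac, Trbc1 and Trbc2 in each deposited cluster group of at least 50 cells, 1 point a library, with the 95% Poisson interval of counting error. Trac climbs from about 0.780 CPM in clusters 0 and 1 to 325 CPM in cluster 5 of WT DN4, while Trbc1 and Trbc2 stay between 274 and 1320 CPM. Both peak in cluster 2 of WT DN4. In KI, Trbc1 peaks in cluster 2, but Trbc2 is no higher there (709 CPM) than in cluster 7 (748) or in clusters 0 and 1 of DN3 (771).

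Within DN3, Trac was at least 2-fold higher in clusters 3 and 4 than in clusters 0 and 1 in both genotypes (log2 ratios 3.01 and 3.54). Of all genes with at least 20 CPM on either side 11.4% (WT) and 12.5% (KI) were so much higher there, and Trac itself lay below that level. The clusters were made from these same cells, so these ratios describe them and test nothing. In cells thinned to 2000 UMIs each, which sets depth equal and leaves out 39, 43, 51 and 97 shallower cells of the libraries, a Trac UMI was found in 0.224% of WT and 0.206% of KI cells of clusters 0 and 1. Cells at this stage are known to lack α chains, so that share was taken as a reference level for the DN3 libraries. Whether it stems from free RNA or from transcripts of the cells themselves was not tested. No such reference was measured at that level for the DN4 libraries. Without thinning the share in clusters 0 and 1 of DN3 was 0.443% and 0.365%, at median depths of 5446 and 4864 UMIs per cell. In thinned DN4 cells of clusters 3 and 4 the share was 4.67% (WT) and 4.93% (KI). In cluster 2 it was 17.4% and 16.3%, and in cluster 5 it was 45.2% and 37.6%. Without thinning the shares in clusters 3 and 4 of DN4 were 29.0% and 31.2%, at median depths of 20697 and 19436 UMIs per cell.

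Outside cluster 5 many more DN4 cells held a Trac UMI than an assembled α chain. In clusters 3 and 4 of DN4, 143 of 493 WT cells and 362 of 1160 KI cells held a Trac UMI, while 10 (2.03%) and 13 (1.12%) had a productive TRA contig. In cluster 2 the Trac UMI was present in 36.8% and 32.9% of cells, and a TRA contig in 5.21% and 6.25%. In cluster 5 the order was the reverse, with a Trac UMI in 70.4% and 58.5% and a TRA contig in 83.0% and 80.8%. The chain was thus found more often than the constant gene in that cluster alone. Of the cells with a Trac UMI in clusters 3 and 4, 9 of 143 (WT) and 7 of 362 (KI) had a TRA contig, against 195 of 228 and 161 of 192 in cluster 5. Traj segments, the J part of the α chain, summed to 36.3 (WT) and 14.1 (KI) CPM over 23 genes in cluster 5, 4.57 and 2.15 in cluster 2, and 0.192 and 0.0880 in clusters 3 and 4 of DN4, and were at 0 in both DN3 libraries. They rest on 117 UMIs in all. Trav segments, some of which δ chains also use, had 924 and 776 CPM in cluster 5, 729 and 638 in cluster 2, and 82.4 and 56.5 in clusters 3 and 4 of DN4. Contigs and UMIs came from the same 5′ cDNA, but receptor libraries are enriched for complete chains, so a missing contig does not show that a cell lacks one.

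**Figure D2:**
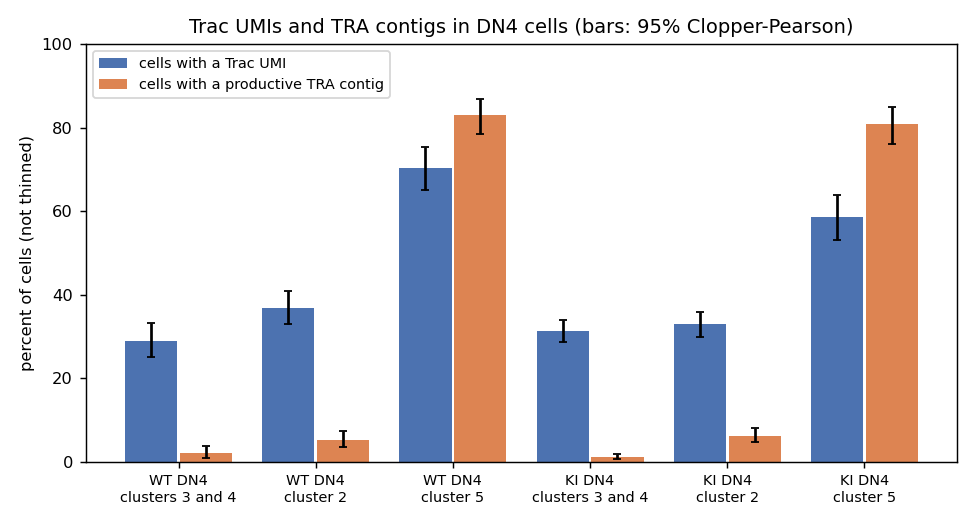
Percent of DN4 cells (not thinned) with at least 1 Trac UMI and with a productive TRA contig, by cluster group and library, with 95% Clopper-Pearson intervals. In clusters 3 and 4 and in cluster 2 the Trac bars (29.0% to 36.8%) stand well above the contig bars (1.12% to 6.25%), and in cluster 5 the contig bars are the higher.

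Free RNA from cluster 5 was looked at through 2 genes of that cluster. Ccl5, a chemokine, stood at 229.7 CPM in cluster 5 of WT DN4 and 237 in KI DN4, and had 0 UMIs in clusters 3 and 4 of both. Xcl1, another chemokine, stood in clusters 3 and 4 at 0.373% (WT) and 0.203% (KI) of its level in cluster 5. Trac stood there at 7.25% and 10.1% of its level in cluster 5. In cluster 2 Ccl5 stood at 0.820% (WT) and 2.14% (KI) of its cluster 5 level, Xcl1 at 0.785% and 1.16%, and Trac at 30.9% and 41.5%. In cluster 5 itself, 9.57% and 9.76% of cells held a Ccl5 UMI and 8.64% and 12.8% an Xcl1 UMI. For Trac that share was 70.4% and 58.5%. Whether free RNA gave any of the Trac UMIs was not tested. Of the 20 DN4 cells in clusters 0 and 1, 0 had a Trac UMI, a count that allows a share of up to 15%, while 12 had a Trbc1 and 13 a Trbc2 UMI.

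Within clusters, cells with a TRA contig held a Trac UMI more often than cells without, in cluster 2 at 67.7% against 35.1% (WT) and 62.3% against 30.9% (KI), and in cluster 5 at 72.5% against 60% and 60.8% against 49.2%, shares that were not thinned. In clusters 3 and 4 it was 9 of 10 cells against 27.7% in WT and 7 of 13 against 31.0% in KI. In cluster 5 the intervals of these shares overlapped (66.7% to 77.7% and 45.9% to 73.0% in WT). Cells with a contig were also deeper in each of these groups. In cluster 5 the medians were 4734 against 3350 UMIs (WT) and 3816 against 3213 (KI), and in cluster 2 of KI 5144 against 4223. Whether depth gave the difference in shares was not tested. The level of Trac in cells with a contig was higher in cluster 2, and in cluster 5 the difference was within counting error. In cluster 2 of WT DN4 it stood at 178 CPM in the 31 cells with a contig and 95.4 CPM in the 564 without, a log2 ratio of 0.90 (95% counting interval 0.40 to 1.37). In KI it stood at 189 CPM in 61 cells and 101 in 915, a log2 ratio of 0.91 (0.53 to 1.28). In cluster 5 the values were 326 CPM in 269 cells and 318 in 55 for WT, and 262 CPM in 265 cells and 236 in 63 for KI. Both intervals of cluster 5 include 0 (-0.32 to 0.41 and -0.25 to 0.58). Trbc1 and Trbc2 went the other way in cluster 2, at 648 and 631 CPM with a TRA contig against 1365 and 1235 without in WT.

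Trbc1 and Trbc2 were high in every group, β chain or none. Over whole DN3 libraries Trbc1 stood at 397 CPM (WT) and 510 (KI), and over whole DN4 libraries at 605 and 380. Trbc2 stood at 510 and 719 CPM in DN3 and at 730 and 435 in DN4. The highest level of both was in cluster 2 of WT DN4, with 1320 CPM of Trbc1 and 1197 of Trbc2, in cells of which 18.7% had a productive TRB contig. Cluster 2 of KI DN4 had 813 and 709 CPM. Cluster 7 of KI DN4 had 529 and 748, and its Trbc2 interval overlapped that of cluster 2 (695 to 805 and 686 to 733). Clusters 0 and 1 of DN3, where 6.87% (WT) and 4.78% (KI) of cells had a productive TRB contig, stood at 440 (WT) and 573 (KI) CPM of Trbc1. Clusters 3 and 4 of the same libraries, most of whose cells had one, were lower, at 285 and 392 CPM. Trbc2 stood at 545 and 771 CPM in clusters 0 and 1 and at 440 and 642 in clusters 3 and 4. The lowest levels in DN4 were in clusters 3 and 4 and in cluster 5 of KI, with 281 and 274 CPM of Trbc1 and intervals that overlap. Cluster 5 of WT stood at 365 CPM of Trbc1 and 538 of Trbc2, and its Trbc1 interval likewise overlapped that of clusters 3 and 4 (376 CPM). Between clusters 2 and 3 and 4 of WT DN4 Trbc1 was 3.51-fold and Trbc2 2.02-fold higher in cluster 2, where 23.8% of all genes were at least 2-fold higher. In KI the folds were 2.89 and 1.93 and the background 23.3%.

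After thinning to 2000 UMIs, 39.5% (WT) and 45.6% (KI) of DN3 cells and 48.0% and 41.8% of DN4 cells held a Trbc1 UMI, and 51.9%, 65.3%, 63.3% and 48.6% a Trbc2 UMI. Without thinning the shares were 60.6%, 65.9%, 66.4% and 66.5% for Trbc1 and 80.5%, 87.4%, 89.8% and 84.3% for Trbc2. The UMIs were unevenly spread over cells. In clusters 0 and 1 of WT DN3 the median cell had 1 UMI of Trbc1 and the highest cell 39, and the 10% of cells with the most held 45.7% of all Trbc1 UMIs (for Trbc2, ranked in the same way, 41.0%). In cluster 2 of WT DN4 the highest cell had 106 Trbc1 UMIs. The counting intervals assume independent molecules and so are too narrow for this spread between cells. Trbc1 took 44.7% and 42.6% of all Trbc UMIs in clusters 0 and 1 (WT and KI), 39.3% and 37.9% in clusters 3 and 4 of DN3, and 52.4% and 53.4% in cluster 2. Cluster 2 was the only group of at least 50 cells in which the point value was above 50%. These shares depend on how reads shared by both genes were counted, which is not given.

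In pre-selection DN3 cells a productive β chain did not come with more constant-gene UMIs. In clusters 0 and 1 of WT DN3 Trbc1 stood at 438 CPM in the 155 cells with a productive TRB contig and 441 in the 2100 without, and Trbc2 at 531 and 546. In KI Trbc1 stood at 544 CPM in 118 cells and 574 in 2351, and Trbc2 at 728 and 773. All 4 counting intervals include a ratio of 1. The V segments, which mark the rearranged part of the chain, were higher with a contig in the same cells. Summed over Trbv genes they stood at 2928 CPM with a contig and 439 without in WT, and at 2382 and 346 in KI. The contig holds a V segment and comes from the same cDNA, so the choice of cells largely fixed that direction. Shares of thinned cells with a Trbc1 UMI were 40.6% and 39.9% in WT with and without a contig, and 46.6% and 47.8% in KI.

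Across all 13 library and cluster groups with at least 20 cells on both sides, Trbc1 was lower in the cells with a productive TRB contig in 13, with log2 ratios from -1.28 to -0.01, a median of -0.63 and a counting interval below 0 in 9. Trbc2 was lower in 12 of 13, from -0.85 to 0.96 with a median of -0.26 and an interval below 0 in 7. As a mean over cells Trbc1 was lower in 12, and cluster 5 of WT DN4 turned to 0.49. The exception was cluster 5 of WT DN4, where Trbc2 stood at 565 CPM with a contig and 291 CPM in the 33 cells without. Trbv segments were higher with a contig in all 13 groups, with log2 ratios from 0.83 to 4.25, a direction that the choice of cells largely fixed. Medians over all genes in these comparisons lay between -0.08 and -0.0012, so below 0 as well. The share of all genes that keep 1 direction in 12 or 13 of the groups is not given here. The largest differences of Trbc1 were in cluster 7 of KI DN4 (267 CPM in 23 cells with a contig, 647 CPM in 52 without) and in cluster 2 of WT DN4 (700 CPM in 111 cells, 1484 in 484). Those were the 2 groups in which Trbc1 was at least 2-fold lower, where 6.23% and 0.907% of genes were. In no group was Trbc2 at least 2-fold apart. Over the 13 comparisons 0.536% to 9.65% of genes were at least 2-fold lower and 0.287% to 7.42% higher. Among clusters 3 and 4, Trbc1 stood at 260 CPM with a contig and 465 without in the WT library of DN3 and at 361 and 596 in that of KI, and in DN4 at 373 and 462 (WT) and at 274 and 430 (KI).

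**Figure D3:**
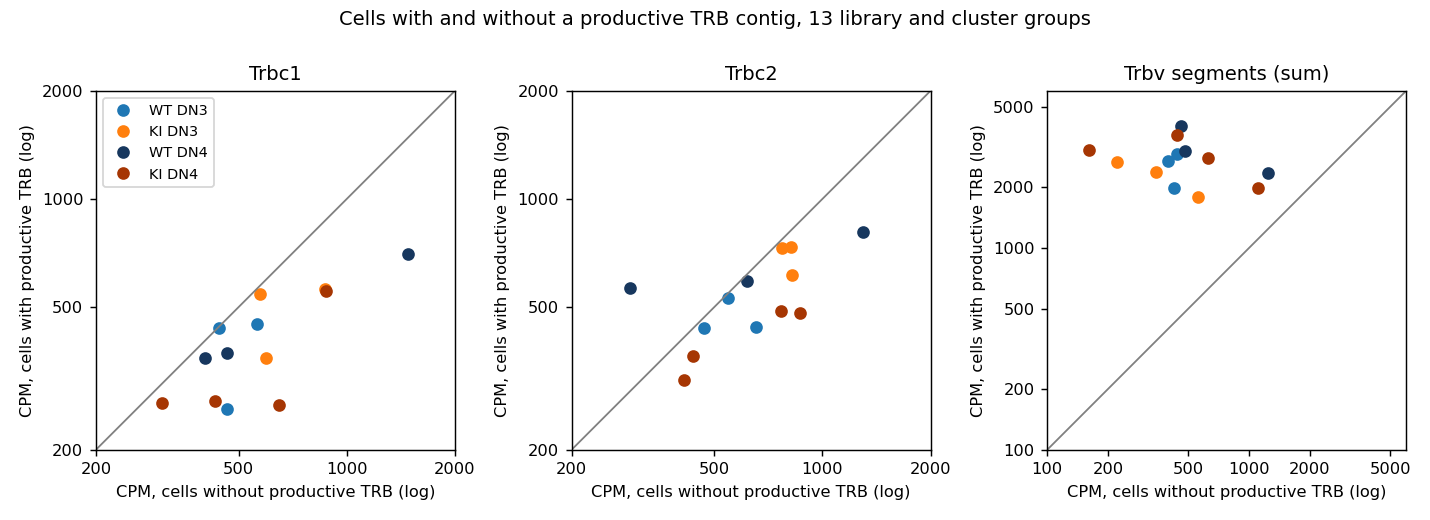
CPM (log axes) in cells with a productive TRB contig against cells of the same library and cluster group without one, for Trbc1, Trbc2 and the sum of Trbv segments, 1 point for each of 13 groups, with the line of equal values. All Trbc1 points and 12 of 13 Trbc2 points fall below the line, and the share of all genes that do so is not given here. All Trbv points lie above it, which the choice of cells largely fixed.

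Among cells with a contig, its UMI count was set against the constant-gene level. In clusters 3 and 4, over 242 to 1014 cells a library, Spearman's rho between the contig's UMIs and the Trbc share of the cell's UMIs was 0.087, 0.11, 0.13 and 0.097. It was higher in clusters 0 and 1 of DN3 (0.31 in WT and 0.35 in KI) and in cluster 2 (0.25 and 0.32), with 0.22 and 0.12 in cluster 5 and 0.038 and 0.034 in cluster 6. For the Trbv share it was 0.45, 0.41, 0.46 and 0.44 in clusters 3 and 4, and between 0.36 and 0.58 over all 12 groups. These are descriptions across cells that share a library and a depth range, and the contig and the UMIs stem from the same cDNA.

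The constant gene named in the contigs followed the J segment on one side only. Of 1759 productive contigs with a TRBJ1 segment, 1749 (99.4%) were called TRBC1. Of 2409 productive contigs with a TRBJ2 segment, 0 had any constant gene named, and the same held for the 5690 TRBJ2 contigs that were not productive. TRBC2 was named in 0 contigs of any library. Whether the annotation used could name it is not given in the sources used here, so these values of 0 say nothing on the transcripts. For the α chain, 354 of 359 productive contigs of WT DN4 and 388 of 395 of KI DN4 were called TRAC. Contig calls were therefore not used to tell the constant genes apart, and UMIs of both genes were compared between cells with exactly 1 productive TRBJ1 chain and cells with exactly 1 productive TRBJ2 chain. For orientation, the first segment of each J cluster reads as follows, with the stretch for the conserved phenylalanine and glycine motif in capitals (Trbj1-1 at chr6:41533864-41533911, Trbj2-1 at chr6:41542754-41542803, plus strand).
Trbj1-1: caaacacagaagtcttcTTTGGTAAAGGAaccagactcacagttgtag
Trbj2-1: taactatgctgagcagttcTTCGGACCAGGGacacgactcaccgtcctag

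Trbc1 was higher in TRBJ1 cells in each of the 4 libraries. It stood at 451 CPM in 250 TRBJ1 cells and 260 CPM in 311 TRBJ2 cells of WT DN3. In KI DN3 it stood at 508 (308 cells) and 327 (376 cells), in WT DN4 at 578 (353 cells) and 277 (495 cells), and in KI DN4 at 420 (632 cells) and 202 (864 cells). The lowest TRBJ1 library was above the highest TRBJ2 library. The share of all genes that separate so, or that keep 1 direction in 4 libraries, is not given here. With the library as a term, Trbc1 rose in TRBJ1 cells by 0.89 on the log2 scale (SE 0.048, edgeR quasi-likelihood test with Benjamini-Hochberg adjustment over 9929 genes, adjusted p = 5.95e-11). Higher calls in TRBJ1 cells made up 0.242% of the genes tested (24 genes) and lower calls 0.0906% (9 genes). Trbc2, which is known to serve TRBJ2 chains, was higher in TRBJ1 cells as well: 513 and 424 CPM (WT) and 752 and 557 (KI) in DN3, and 721 and 544 (WT) and 406 and 353 (KI) in DN4. Its log2 ratio was 0.32 (SE 0.034, edgeR, adjusted p = 4.40e-06), also in the same direction in 4 of 4 libraries. Trac did not pass the test, with a log2 ratio of -0.14 (SE 0.077, edgeR, adjusted p = 0.775). In clusters 3 and 4 alone Trbc1 and Trbc2 rose by 0.81 and 0.34 (edgeR, adjusted p = 5.59e-14 and 2.03e-09). The 4 pairs of sums come from 2 genotypes and 2 stages, and the contigs that define the cells come from the same cDNA as the UMIs. Without the library term the log2 ratios were 0.87 and 0.34 and neither passed (edgeR, adjusted p = 0.699 for Trbc1).

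Many TRBJ2 cells nevertheless held UMIs counted as Trbc1. How reads shared by Trbc1 and Trbc2 were counted is not given, so which gene gave these UMIs is not known. After thinning to 2000 UMIs, Trbc1 was found in 45.2%, 50.3%, 54.0% and 47.5% of TRBJ1 cells and in 28.2%, 29.9%, 26.0% and 25.5% of TRBJ2 cells. The ranges of TRBJ1 and TRBJ2 cells did not overlap, and the share of all genes for which that holds is not given here. Without thinning it was found in 84.0%, 88.6%, 87.8% and 89.1% of TRBJ1 cells and in 51.8%, 55.1%, 44.2% and 47.0% of TRBJ2 cells, at median depths of 11593, 13590, 13161 and 15648 UMIs for TRBJ1 and 14286, 15334, 10265 and 16571 for TRBJ2. Trbc2 was found without thinning in 88.1% to 95.8% of TRBJ1 cells and 85.6% to 93.1% of TRBJ2 cells, ranges that overlap. By single segment, the median over libraries of the Trbc1 share of Trbc UMIs was between 35.3% (TRBJ1-5, 168 cells) and 52.6% (TRBJ1-6, 130 cells) for the 6 TRBJ1 segments, and between 32.2% and 38.6% for the 6 TRBJ2 segments. TRBJ1-5 alone of the TRBJ1 segments fell inside the TRBJ2 range.

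**Figure D4:**
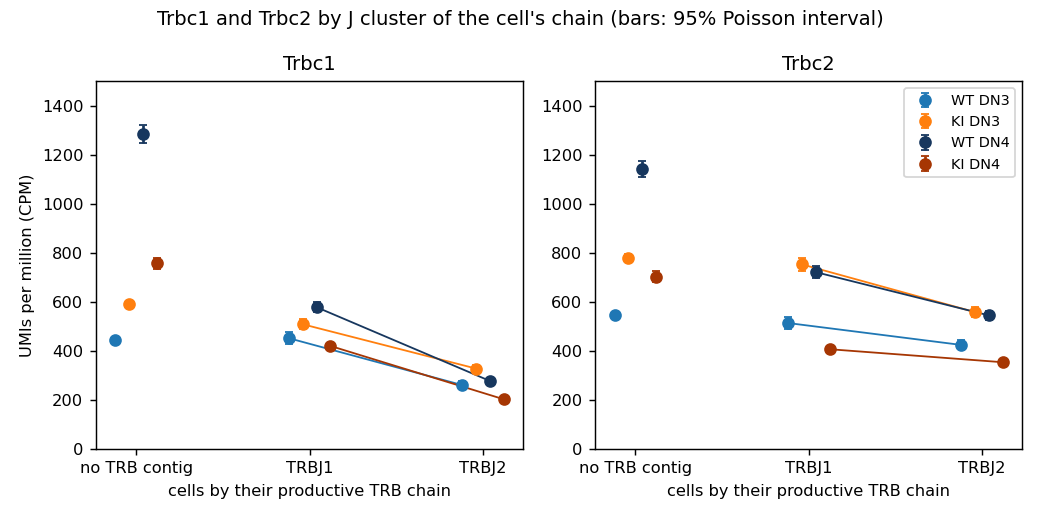
CPM of Trbc1 and Trbc2 (linear axes from 0) in cells without a TRB contig and in cells with exactly 1 productive TRBJ1 or TRBJ2 chain, 1 colour a library, with 95% Poisson intervals and lines joining the paired values of a library. Every line slopes down from TRBJ1 to TRBJ2, more steeply for Trbc1 (log2 ratio 0.89) than for Trbc2 (0.32), and in both DN4 libraries cells with no contig stand above the other kinds (1283 and 757 CPM of Trbc1 in WT and KI). All clusters are pooled, and the kinds of cells differ in cluster. In WT DN4, cluster 2 held 484 cells without a productive TRB contig and 111 with one, and clusters 3 and 4 held 24 and 469.

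Of the 31 other genes that passed between TRBJ1 and TRBJ2 cells, 18 were receptor constant genes or segments and 13 were not. The sums pool all clusters. Clusters 3 and 4 held 93 of 250 TRBJ1 and 149 of 311 TRBJ2 cells in WT DN3, and 190 of 353 and 245 of 495 in WT DN4. In clusters 3 and 4 alone 39 genes passed (edgeR), of which 27 were among the 33 passing over all clusters. Whether the mix of clusters gave the other calls was not tested. The 6 Trbj1 genes Trbj1-1 to Trbj1-6 rose in TRBJ1 cells, by 1.06 (Trbj1-2) to 2.24 (Trbj1-5) on the log2 scale, which the choice of cells fixed. Trbj2-1 also rose in TRBJ1 cells, by 1.12 (SE 0.094, edgeR, adjusted p = 1.77e-07), while Trbj2-5 had -0.57, Trbj2-3 0.36 and Trbj2-7 0.10, none of which passed (edgeR, adjusted p = 0.390, 0.621 and 0.966). Among V segments Trbv31 and Trbv1 rose (0.53 and 0.42), and Trbv17, Trbv15, Trbv2, Trbv14 and Trbv30 fell, by 0.60 (Trbv15) to 1.59 (Trbv30) on the log2 scale. Trdc and Tcrg-C1, constant genes of the δ and γ chains, rose by 0.35 each, while the γ segments Tcrg-V1 and Tcrg-V4 fell by 0.45 and 0.28 on the log2 scale (edgeR, adjusted p = 0.00325 and 0.0307). Ptcra, the partner of the β chain in the pre-receptor, rose by 0.39 (edgeR, adjusted p = 0.000420, with 1.34e-05 for Trdc and 0.00913 for Tcrg-C1). Xcl1, a chemokine, rose by 1.15 (adjusted p = 0.000399, edgeR). The rest were Myl10, Ly6d, Gm4632, Bst2, Satb1, Arl5c, Lars2, Cdkn1a and Dntt, which rose by 0.10 (Dntt) to 0.71 (Cdkn1a), and 5830405F06Rik and Ephb6, which fell by 0.82 and 0.66.

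Between genotypes, Trbc1 and Trbc2 differed in opposite directions at the 2 stages. In DN3 the KI library was higher, by log2 ratios of 0.36 for Trbc1 (95% counting interval 0.32 to 0.40) and 0.50 for Trbc2 (0.46 to 0.53). In DN4 the KI library was lower, by -0.67 (-0.71 to -0.63) and -0.75 (-0.78 to -0.71). None of the members was 2-fold apart between genotypes, where 0.138% of 5797 genes were higher and 0.552% lower in KI DN3, and 0.0715% of 5592 genes higher and 0.59% lower in KI DN4. With 1 library a group, a difference between genotypes and one between single libraries cannot be told apart. The directions were the same in each cluster group as pooled here. Trbc1 was at 573 (KI) and 440 (WT) CPM in clusters 0 and 1, 663 and 480 in cluster 6, and 392 and 285 in clusters 3 and 4 of DN3. Taken alone, cluster 0 of DN3 had 577 (KI) and 350 (WT) CPM of Trbc1. Cluster 1 had 391 (54 KI cells) and 443 (WT), the other way, with intervals that overlap (320 to 472 and 431 to 455). In DN4 Trbc1 was at 281 (KI) and 376 (WT) CPM in clusters 3 and 4, 813 and 1320 in cluster 2, and 274 and 365 in cluster 5. The log2 ratios of Trbc2 ran from 0.50 to 0.61 in the 3 cluster groups of DN3 and from -0.75 to -0.69 in the 3 of DN4. Cells with TRBJ1 chains and cells with TRBJ2 chains both had it, as their levels above show.

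Trac had the same signs over whole libraries but not within clusters. Its KI over WT ratio was 0.45 (0.04 to 0.87) in DN3, from 128 and 83 UMIs, and -0.48 (-0.59 to -0.37) in DN4. Within DN3 clusters it was 0.03 in clusters 0 and 1 (-1.39 to 1.45), 0.57 in clusters 3 and 4 (0.02 to 1.14) and -0.65 in cluster 6 (-1.59 to 0.26). Within DN4 clusters it was 0.15 in clusters 3 and 4 (-0.07 to 0.37), 0.09 in cluster 2 (-0.10 to 0.28) and -0.34 in cluster 5 (-0.53 to -0.14). Cluster 5, where Trac was highest, held 324 of the 1477 cells of WT DN4 and 328 of the 2577 of KI DN4. The DN4 ratio turned to 0.16 once clusters 2, 5 and 7 were left out.

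**Figure D5:**
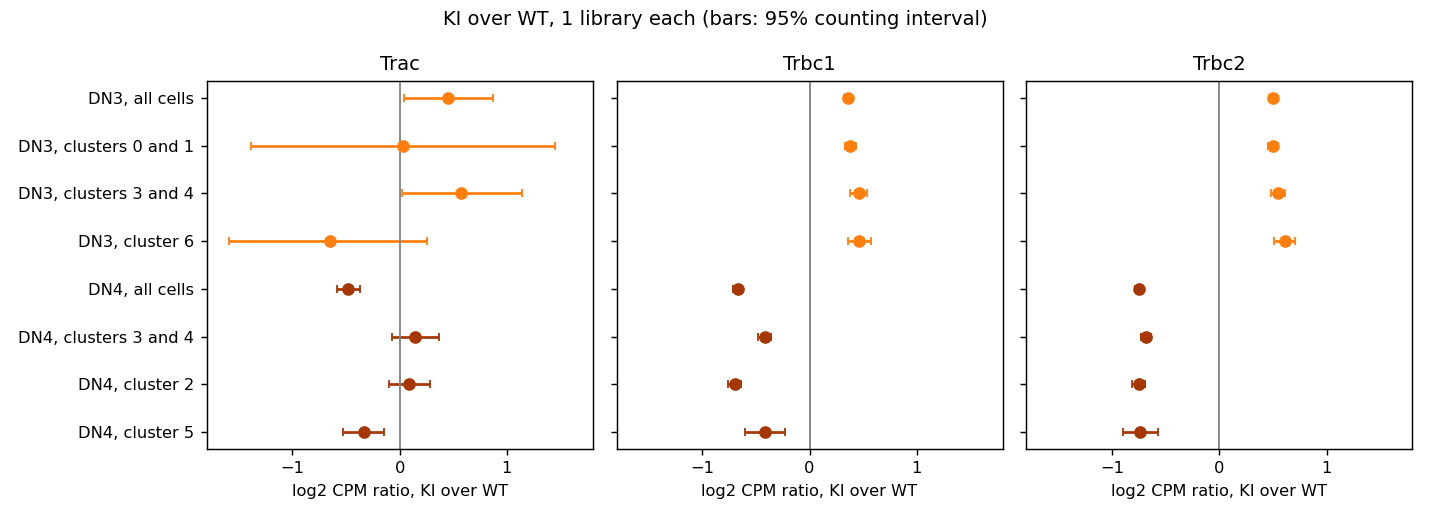
Log2 CPM ratios of KI over WT for Trac, Trbc1 and Trbc2 over all cells and within cluster groups of each stage, 1 library against 1, with 95% counting intervals and a line at 0. Trbc1 and Trbc2 lie right of the line in all 4 DN3 rows and left of it in all 4 DN4 rows; Trac does so only in part.

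From DN3 to DN4 Trac was 19.9-fold higher in WT and 10.4-fold higher in KI, where 3.82% and 2.68% of genes were at least 2-fold higher. These are log2 ratios of 4.31 and 3.38; as means over cells they were 5.87 and 5.20, and with clusters 2, 5 and 7 left out 2.73 and 2.46. Within clusters 3 and 4 alone it was 3.76-fold (WT) and 2.81-fold (KI) higher in DN4, with a background of 0.436% and 0.616%. Trbc1 and Trbc2 went up in WT (log2 ratios 0.61 and 0.52) and down in KI (-0.42 and -0.73) over whole libraries. Within clusters 3 and 4 the ratios were 0.40 and 0.43 in WT and -0.48 and -0.81 in KI. These comparisons use the same 4 libraries as those between genotypes, so the opposite signs are not a second observation. With clusters 2, 5 and 7 left out the Trbc1 ratio in WT turned to -0.057. Trbv segments were higher in DN4 in both genotypes (2070 and 1134 CPM in WT, 1788 and 1060 in KI).

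Over whole libraries, most partners of the members in the receptor complex were lower in DN4 than in DN3 in both genotypes. The exception was Cd247, with log2 ratios of 0.29 (WT) and 0.13 (KI). Trbc1 and Trbc2 were lower in DN4 in KI alone. From DN3 to DN4, 2 of the 5 genes of the list (Ptcra, Cd3e, Cd3d, Cd3g and Cd247, the pre-T α chain and the signalling chains) were at least 2-fold lower in each genotype and 0 higher, where 4.41% (WT) and 5.05% (KI) of all genes were so much lower. Those were Ptcra, at 408 CPM in WT DN3 and 69.9 in WT DN4, and Cd3g, at 2665 and 927. In KI Ptcra stood at 359 and 62.4 CPM and Cd3g at 2565 and 872. Within clusters 3 and 4 neither was 2-fold apart, with log2 ratios of 0.0039 (WT) and -0.08 (KI) for Ptcra and -0.61 and -0.65 for Cd3g. The list's median log2 ratio was -0.79 in WT and -0.996 in KI, beside -0.03 and -0.07 over all genes tested. Of the γ and δ constant genes, 4 reached 20 CPM and 3 were at least 2-fold lower in DN4 of each genotype (Tcrg-C1, Tcrg-C2 and Tcrg-C4), with list medians of -1.45 and -1.801. Within clusters 3 and 4 these 3 were again at least 2-fold lower, where 0.587% (WT) and 0.847% (KI) of all genes were. The list medians there were -1.61 and -1.899. Between genotypes 0 members of either list were 2-fold apart. The median log2 KI over WT ratio of the receptor complex was -0.07 in DN3 and -0.16 in DN4, and that of the γ and δ constant genes -0.27 and -0.54, so neither had the positive DN3 sign of Trbc1 and Trbc2 (0.36 and 0.50). The members of the recombinase list that reached 20 CPM (Rag1, Rag2 and Dntt in WT, Rag1 and Dntt in KI), which cut and extend receptor segments, were at least 2-fold lower in DN4 over whole libraries. Within clusters 3 and 4 Rag1 was instead at least 2-fold higher in DN4 (log2 ratios 1.34 in WT and 1.15 in KI), and Dntt had -0.24 and -0.29. Of all genes, 0.436% (WT) and 0.616% (KI) were so much higher there. Of the 3 coreceptor genes Cd4, Cd8a and Cd8b1, only Cd8b1 reached 20 CPM, and its DN4 over DN3 log2 ratio was 5.11 in WT and 4.46 in KI.

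Over the 19 groups of a cluster in a library with at least 50 cells, the genes whose level ran closest to that of Trac, by Pearson's r of log2(CPM + 10), were Cd2 (r = 0.98), an adhesion receptor of T cells, Kcnmb4 (0.98), Ikzf3 (0.97), a lymphoid transcription factor, Rgs3 (0.97), Rap1gds1 (0.96) and Flna (0.96), an actin cross-linker. Trbc1 and Trbc2 had r = 0.15 and 0.0036 with Trac. Closest to Trbc1 were Trbc2 (r = 0.88), Tmem64 (0.87), Tmem154 (0.86), 1190002N15Rik (0.86), Cmas (0.86), Cpa3 (0.85) and Mbp (0.84). Closest to Trbc2, after Trbc1, were Cmas (0.79), Tmem154 (0.75), St8sia1 (0.74), Gnai3 (0.73), 1190002N15Rik (0.72) and Clta (0.71). The groups share 4 libraries and the clusters were made from the same counts, so these values describe a ranking of 7659 genes and carry no test.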

How the data were processed

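Double-negative thymocytes were enriched by magnetic negative selection, sorted, and profiled with 5′ single-cell expression and receptor libraries, per the labels' protocols. The deposited matrix holds UMI counts (whole numbers, not normalized) with cluster numbers for each cell, and the deposited contig tables hold counts of UMIs and reads for each assembled chain. Cell Ranger 3.1.0 and 6.0.1 and the build mm10 are named in the submitters' processing notes. Which version made which file, and how reads shared by Trbc1 and Trbc2 were counted, is not given in the sources used here. All 10237 deposited cells were used; Scrublet (scanpy 1.11.5) marked 4 (WT) and 5 (KI) doublets in DN3 and 20 and 44 in DN4, which were left in, and its rates of 0.139% and 0.152% in DN3 are too low to show that it worked there.

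Expression barcodes were matched to the receptor library of the same genotype and stage, and 597 of 608, 728 of 751, 909 of 930 and 1616 of 1658 contig barcodes were found. Levels are UMIs summed over cells per 1000000 UMIs of those cells (CPM), with exact Poisson 95% intervals. Ratios carry exact conditional binomial intervals and shares Clopper-Pearson intervals. All of these cover counting error only, and libraries, not cells, are replicates, so with 1 library a group no test was made. Genes were counted as apart at 2-fold or more with at least 20 CPM on either side. A limit for a count of 0 is 3 counts. Cluster groups needed 50 cells. The comparison of TRBJ1 with TRBJ2 cells used edgeR 4.0.16 (R 4.3.3, quasi-likelihood test with the library as a term, 8 sums, Benjamini-Hochberg threshold 0.05), tested on simulated data. The alternatives were TMM scaling, other filters on low counts, doublets or clusters 2, 5 and 7 left out, means over cells, thinning to 4000 UMIs, at least 2 UMIs, contigs of at least 3 UMIs, DESeq2 1.42.0, no library term, and each library left out.

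The named genes are the members, fixed lists (receptor complex, coreceptors, γ and δ constant genes, recombinase, receptor segments), the 6 genes most correlated with each member, and genes past the threshold between TRBJ1 and TRBJ2 cells. Another list is not reported here. The members and lists were chosen with earlier results of these data known. Sequences and positions come from GENCODE vM21 (GRCm38, the assembly that mm10 names), matched by symbol for the 3 members.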

Additional observations from a re-analysis of the deposited data

Results flagged for a closer look

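For all 3 genes the difference between genotypes had the opposite sign at the 2 stages, which is what brought them here. The log2 KI over WT ratio in DN3 minus that in DN4 was 0.93 for Trac (0.45 and -0.48), 1.03 for Trbc1 (0.36 and -0.67) and 1.24 for Trbc2 (0.50 and -0.75). As a fold these differences are 1.91, 2.04 and 2.37. The difference was not tested, since each of the 4 values rests on 1 library. For Trac the DN4 sign turned (0.16) with clusters 2, 5 and 7 left out; for Trbc1 and Trbc2 it stayed negative (-0.44 and -0.69).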

How the results depend on the processing

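Of the values that answer a comparison, 56 stayed the same under an alternative, 33 moved, 2 lost the threshold and 2 turned in direction. Where they did, the cause was not tested. A log2 ratio between libraries stayed the same if it lay within its counting interval. A count of genes or groups did so if it stayed within a fixed fold. A member in the comparison of TRBJ1 with TRBJ2 cells did so if it stayed on its side of the threshold. With clusters 2, 5 and 7 left out, the log2 KI over WT ratios in DN4 were 0.16 for Trac (turned), -0.44 for Trbc1 and -0.69 for Trbc2, and the DN4 over DN3 ratios of Trac, Trbc1 and Trbc2 were 2.73, -0.057 (turned) and 0.22 in WT and 2.46, -0.85 and -0.97 in KI. TMM scaling gave KI over WT ratios in DN4 of -0.36, -0.56 and -0.63, and DN4 over DN3 ratios in KI of -0.30 (Trbc1) and -0.61 (Trbc2). A mean over cells gave -0.62 for Trbc1 between genotypes in DN4, DN4 over DN3 ratios of 5.87, 0.93 and 0.74 in WT and 5.20, -0.064 and -0.55 in KI, and 1 of 4 groups, in place of 0, with lower Trac in cells with a TRA contig. Genes at least 2-fold apart (40, 37, 493 and 450 for KI over WT in DN3 and DN4 and DN4 over DN3 in WT and KI) numbered 84, 115, 995 and 936 at 5 CPM and 1314, 1448, 2883 and 2969 with no filter. Between TRBJ1 and TRBJ2 cells, 33 genes passed (edgeR), against 12 with DESeq2, 106 with no filter, and 18 (without KI DN3) to 52 (without WT DN3) with 1 library left out. With no library term 0 passed (59 at an unadjusted p under 0.05; Trbc1 0.87, Trbc2 0.34). Trbc1 (0.83 to 0.98) and Trbc2 (0.29 to 0.37) passed without each library. The labels give no replicate numbers, so no replicate block was fitted; the comparison of TRBJ1 with TRBJ2 cells pairs both sums of a library through the library term. Depth limits Trac in DN3 most, with 83 (WT) and 128 (KI) UMIs in all.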
